A study of Homo sapiens with 32 samples.

Results

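The comparison described here is that of MMR proficient with MMR deficient HCT116 cells after treatment with 5-fluoro-2'-deoxyuridine (5FdUR). Its members were the 2 enriched libraries of the 5FdUR_UGI cells and the 2 enriched libraries of the 5FdUR_UGI_MMR cells, 4 of the 32 samples of the series, chosen by these labels. U-DNA-Seq maps uracil in genomic DNA by sequencing fragments that are bound by an inactive, FLAG-tagged uracil-DNA glycosylase, beside the input DNA. The question was which loci, genes and chromosomes take a larger or a smaller share of the uracil-enriched regions in cells that can repair mismatches.

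HCT116 cells derive from a human colorectal carcinoma and lack working DNA mismatch repair (MMR). The MMR proficient line carries an added chromosome 3 that restores this repair, so an effect of MMR cannot be told apart from one of other genes on that chromosome. Cells of all 4 libraries expressed UGI, a protein that inhibits the main uracil-DNA glycosylase, and all received 20 µM 5FdUR for 48 h. The study made stable UGI lines by retroviral transduction and sorting for EGFP, and also used transient transfection. The sample titles do not say which of these a library came from. For comparison, RTX_UGI and RTX_UGI_MMR cells received 100 nM raltitrexed (RTX) for 48 h and NT_UGI and NT_UGI_MMR cells received no drug, with 2 libraries each. WT cells were MMR deficient, not treated and did not express UGI.

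The active form of 5FdUR inhibits thymidylate synthase, the enzyme that makes dTMP from dUMP. When dTTP is short and dUTP is high, DNA polymerases place uracil opposite adenine, and UGI keeps the glycosylase UNG from removing it. Mismatch repair recognizes mispaired bases with dimers that contain MSH6 or MSH3. It then recruits a complex that contains PMS2, after which EXO1 degrades the strand and DNA polymerase δ fills the gap with PCNA, RFC and RPA. The fluorinated base can also be incorporated, and its pair with guanine is a known substrate of mismatch repair.

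A region of uracil enrichment is a stretch in which the smoothed log2 ratio of enriched to input coverage lay above a threshold that the authors set for each library. The covered share of a bin or chromosome is the percentage of its known bases that lie in such regions. For genes, exons and promoters it is the percentage of all their annotated bases. The regions covered 17.4% and 17.1% of the genome in the 5FdUR_UGI libraries and 17.3% and 17.8% in the 5FdUR_UGI_MMR libraries. These totals follow from the thresholds, so a higher share in one place goes with a lower share in another. The number of regions was 99072 and 149962 in the deficient cells and 176909 and 226382 in the proficient cells. Regions began at log2 values of 0.25 and 0.14 in the deficient libraries and of 0.20 and 0.13 in the proficient ones. A base just below its threshold is not covered, and the region files hold no read counts, so no share has a counting interval. The root mean square of the replicate SD over 100 kb bins was 11.8 percentage points in 5FdUR_UGI and 9.26 in 5FdUR_UGI_MMR, against 3.75 to 6.96 in the other 5 HCT116 conditions.

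Sequences of both kinds of place are given first, since the comparison turned on base composition. Each is a stretch of GRCh38 written from 5′ to 3′ in lower case, with every CG dinucleotide in capitals. The windows of 200 bases are the centres of the longest stretches that were in regions of both libraries of one MMR status and of neither library of the other, within the longest runs of bins described below. The first lies at chr9:114800751-114800950 inside TNFSF15, in a stretch of 19500 bp with 42.7% GC that was gained in the MMR proficient libraries. The second lies at chr11:69959351-69959550, outside annotated protein-coding genes, in a stretch of 46900 bp with 51.9% GC that was covered in the MMR deficient libraries only. The promoters are the 250 bases before the start that RefSeq gives for FAM24B, at chr10:122879642-122879891 on the minus strand, and TTBK1, at chr6:43243231-43243480 on the plus strand. They are shown as promoters of named genes whose start was in regions of both libraries of one status only.
Gained window, chromosome 9: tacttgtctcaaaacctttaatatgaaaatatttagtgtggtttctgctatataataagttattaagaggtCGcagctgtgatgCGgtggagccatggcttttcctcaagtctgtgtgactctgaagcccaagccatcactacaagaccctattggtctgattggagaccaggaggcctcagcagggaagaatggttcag
Lost window, chromosome 11: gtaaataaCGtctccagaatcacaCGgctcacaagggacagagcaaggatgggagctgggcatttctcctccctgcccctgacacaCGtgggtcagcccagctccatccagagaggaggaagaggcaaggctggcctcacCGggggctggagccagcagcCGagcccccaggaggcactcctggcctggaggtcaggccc
FAM24B promoter, gained: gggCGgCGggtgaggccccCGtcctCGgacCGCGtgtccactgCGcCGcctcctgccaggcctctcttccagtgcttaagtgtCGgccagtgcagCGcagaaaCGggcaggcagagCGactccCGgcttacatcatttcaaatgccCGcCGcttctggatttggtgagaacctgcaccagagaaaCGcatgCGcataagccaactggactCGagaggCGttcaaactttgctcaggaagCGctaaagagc
TTBK1 promoter, lost: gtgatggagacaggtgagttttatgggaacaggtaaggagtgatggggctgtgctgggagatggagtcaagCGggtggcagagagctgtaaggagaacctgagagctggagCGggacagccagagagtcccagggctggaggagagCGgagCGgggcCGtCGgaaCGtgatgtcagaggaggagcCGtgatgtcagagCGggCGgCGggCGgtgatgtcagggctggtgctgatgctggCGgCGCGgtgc
The gained window holds 2 CG dinucleotides and has 44% GC, and the lost window holds 5 and has 64% GC. The promoters of FAM24B and TTBK1 hold 20 and 15 and have 61.2% and 63.6% GC, so that single promoters rich in CG were found in both directions. The promoter of NME5, another named gene whose start was covered in both deficient libraries only, is not shown. It holds 4 CG dinucleotides and has 44.4% GC.

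The MMR proficient cells had less of the GC-rich and more of the GC-poor genome in uracil-enriched regions after 5FdUR. In 100 kb bins of 50% GC or more, the covered share was 48.0% and 45.5% in the 5FdUR_UGI libraries and 29.9% and 15.2% in the 5FdUR_UGI_MMR libraries. Both proficient libraries lay below both deficient ones, by 24.2 percentage points on average. In bins of 46 to 50% GC the shares were 46.6% and 39.4% in deficient and 35.2% and 23.5% in proficient libraries, again without overlap. Between 42 and 46% GC the libraries overlapped, with 31.1% and 26.9% against 29.3% and 24.6%. The order was turned in poorer bins. Bins of 37 to 39% GC were covered to 4.51% and 6.76% in deficient and 9.36% and 14.9% in proficient libraries, and both proficient libraries were the higher. In bins under 37% GC the shares were 0.765% and 4.96% against 3.97% and 11.2%, with overlap. With 2 libraries against 2, a two-sided exact permutation test cannot go below p = 0.33, so these class differences were compared only with the spread of the libraries.

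After RTX the most GC-rich bins were also covered less in MMR proficient cells, to 33.4% and 48.4% against 55.2% and 62.6% in deficient cells. Without drug all UGI-expressing libraries covered at most 0.305% of these bins, while they covered 31.3% to 33.7% of the bins under 37% GC. Coding exons followed the GC-rich bins. Their covered share was 30.3% and 27.1% in 5FdUR_UGI and 21.4% and 14.6% in 5FdUR_UGI_MMR libraries, a difference of -10.7 percentage points. Introns were covered to 16.1% and 15.2% against 16.6% and 15.4%, with overlap. Outside protein-coding genes the shares were 17.5% and 17.9% against 17.7% and 19.8%, with overlap.

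Promoters, taken as 500 bp on each side of a gene start, showed the largest difference of the feature classes measured. They were covered to 39.5% and 35.6% in the MMR deficient and to 20.4% and 16% in the MMR proficient libraries. In the RTX libraries the shares were 32.2% and 38.8% against 21.4% and 25.7%. Of 15345 protein-coding genes with a promoter in the RefSeq table, the start was in a region in 5894 and 5280 genes in the deficient libraries and in 3003 and 2394 genes in the proficient ones. The start was in regions of both deficient and neither proficient library in 1766 genes, and the other way round in 261 genes. The 300 bases around these starts, from 250 before to 50 after, held a median of 25 CG dinucleotides in the 1766 genes, 10 in the 261 genes and 22 in all 15345. Promoters with 25 or more were covered at the start in 42.2% and 35.4% of cases in deficient and 15.7% and 12.6% in proficient cells. Promoters with at most 4 were covered in 31.0% and 27.3% against 26.9% and 21.6% of cases. The lower share in proficient cells was thus seen in both groups, and was the larger where CG was frequent.

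Long genes and short genes went opposite ways. In the 5601 protein-coding genes of 5 to 20 kb, the mean covered share was 41.4% and 31.5% in deficient and 20.2% and 13.4% in proficient libraries. In the 323 genes above 500 kb it was 2.62% and 6.26% against 11.1% and 13%, and in the 1179 genes of 200 to 500 kb it was 9.08% and 11.5% against 17.5% and 17%. In both long classes the proficient libraries were the higher without overlap. Genes of 100 to 200 kb had 18.4% and 17.4% against 19.1% and 16.3%. After RTX, genes of 5 to 20 kb were also lower in both proficient libraries, with 48% and 54.1% against 33.9% and 42.3%, and genes of 200 to 500 kb higher, with 11.2% and 12% against 15.2% and 13.2%. The genes above 500 kb had RTX shares of 2.19% and 2.34% in deficient and 3.68% and 2.63% in proficient libraries.

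Over whole chromosomes, 9 of the 23 chromosomes 1 to 22 and X had a higher covered share in both MMR proficient libraries, 8 had a lower share in both, and 6 overlapped. The largest losses were on chromosomes 17, 22 and 19, which are short, GC-rich and dense in genes. Chromosome 17 was covered to 30.5% and 22.2% in deficient and 17.2% and 12.3% in proficient libraries. Chromosome 22 had 29.4% and 27.1% against 23% and 15.7%, and chromosome 19 had 22.6% and 19.5% against 14.3% and 12.2%. The largest gains were on chromosomes 4, 8 and 13. Chromosome 4 was covered to 11.2% and 14.7% in deficient and 15.4% and 21.4% in proficient libraries. Chromosome 8 had 13.9% and 14.5% against 17.7% and 18%, with replicates that differed by less than 1 percentage point in each status. Chromosome 13 had 11.6% and 15.1% against 15.4% and 17.6%. Part of this pattern was also seen after RTX. Chromosomes 17, 22 and 19 were lower in both proficient RTX libraries, with mean differences of -8.23, -11.0 and -13.7 percentage points. Chromosome 4 was higher in both, with a mean difference of 2.29, while chromosomes 8 and 13 overlapped. When only regions with a log2 value of at least 0.25 were kept in every library, no chromosome was higher in both proficient libraries and 1 was lower in both. This limit leaves 510 and 314 Mb in the deficient and 418 and 159 Mb in the proficient libraries. No chromosome was higher in both with regions of at least 5 kb either, and 12 were lower in both. That filter leaves 427 and 352 Mb in the deficient and 335 and 295 Mb in the proficient libraries.

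Chromosome 3, of which the MMR proficient line has an added copy, was covered to 16% and 15% in 5FdUR_UGI and 16.4% and 17.6% in 5FdUR_UGI_MMR libraries. It was higher in both proficient libraries also after RTX, with 20.4% and 19.6% against 16.4% and 17.9%, and without drug, with 14.1% and 14.5% against 13.2% and 13.2%. Chromosome 3 alone was higher, and chromosome 19 alone lower, in both proficient libraries under all 3 treatments. The lower share of GC-rich bins was not restricted to the chromosomes with losses. In bins of at least 46% GC, the mean covered share was lower in proficient cells on all 23 chromosomes, and the libraries did not overlap on 20. On chromosome 3 it was 57.6% and 47.1% against 37.3% and 22.3%. The smallest difference was on chromosome 18, with 39.1% and 54.7% against 52.9% and 39.8% in its 42 bins.

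The same comparison was made bin by bin and gene by gene with limma on the covered shares of the 4 libraries. Of 24509 bins of 100 kb with a mean share of at least 1%, no bin had an adjusted p under 0.05 (0% higher and 0% lower), and the lowest adjusted p was 0.116. At an unadjusted p under 0.05, 3491 bins (14.2%) were higher and 2863 (11.7%) lower in MMR proficient cells. Both proficient libraries were above both deficient ones in 10078 bins (41.1%) and below both in 5553 bins (22.7%). Of 16692 genes tested, none was called (0% in either direction), with a lowest adjusted p of 0.0705, and 887 genes (5.31%) were higher and 2432 (14.6%) lower at an unadjusted p under 0.05. Both proficient libraries were the higher in 3172 genes (19%) and the lower in 6116 genes (36.6%).

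When the spread was estimated from all 14 HCT116 libraries, 6356 bins (25.9%) and 1691 genes (10.1%) were higher, and 3872 bins (15.8%) and 3279 genes (19.6%) lower, at an adjusted p under 0.05 and without overlap of the 2 groups. The other conditions vary less between replicates than the 5FdUR libraries, so the p-values of this fit are too small for them. In bins of 500 kb the 4 libraries alone called 190 bins (3.54%) higher and 270 (5.03%) lower of 5367. The loci and genes named below were called by the fit on 14 libraries, a choice made after the fit on 4 libraries had called none, so their size in each library is given as a description. Of the tested bins of 50% GC or more, 48.7% were called lower and 3.32% higher by this fit, and of those of 37 to 39% GC, 3.23% lower and 31.4% higher.

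The longest run of adjacent bins that were higher in MMR proficient cells lay at chr9:114700001-117100000. It has 40.4% GC, 6 protein-coding genes and ASTN2, PAPPA and TNC as the longest of them. ASTN2 encodes a neuronal protein of glial-guided migration, PAPPA a protease of insulin-like growth factor binding proteins, and TNC the matrix protein tenascin C. The run was covered to 0.583% and 5.02% in deficient and 36.2% and 41.5% in proficient libraries. The next runs lay at chr4:20600001-22700000, with KCNIP4, SLIT2 and ADGRA3, and at chr17:33000001-34900000, with ASIC2, TMEM132E and CCL1. They were covered to 0.410% and 1.88% against 19.9% and 28.1%, and to 0.00526% and 4.52% against 32.4% and 21.5%. The RTX libraries covered at most 3.74% of any of these 3 runs, in cells of either MMR status. With only regions of at least 5 kb, the MMR differences of the runs after 5FdUR fell from 36.1, 22.8 and 24.7 percentage points to 24.3, 11.4 and 13.97. At a log2 value of at least 0.25 they were 22.2, 10.8 and 13.02.

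The longest run with lower shares lay at chr11:68600001-70300000. It has 51.0% GC, 20 protein-coding genes and ANO1, PPP6R3 and PPFIA1 as the longest, of which ANO1 encodes a calcium-activated chloride channel. It was covered to 88.4% and 72.1% in deficient and 34.1% and 6.28% in proficient libraries. The runs at chr16:57200001-58500000, with GINS3, KIFC3 and CNGB1, and at chr20:49500001-50800000, with RIPOR3, BCAS4 and B4GALT5, followed. The first had 88.1% and 63.3% against 30.7% and 13.7%, and the second had 80.6% and 33.4% against 7.87% and 3.08%. The RTX_UGI libraries covered 81.1% to 95.7% and the RTX_UGI_MMR libraries 53.1% to 82.0% of these runs.

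Among genes of at least 20 kb, the 10 with the largest gains were covered to at most 1.56% in replicate 1 and 23.1% in replicate 2 of the MMR deficient cells. TNFSF15, at chr9:114784652-114806039, encodes a cytokine of the tumor necrosis factor family and was covered to 0% and 0% in deficient and 99.1% and 77.1% in proficient libraries. FLI1, a transcription factor of blood and endothelial cells at chr11:128686535-128813267, had 0% and 17.5% against 93.1% and 78.2%. IL1RL1, the receptor of interleukin 33 on chromosome 2, had 0% and 5.67% against 61.2% and 89.3%. That the libraries do not overlap in these genes follows from how they were chosen.

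ANO2, a chloride channel gene of 414364 bp on chromosome 12, had 0.314% and 9.03% against 79.7% and 71.6%, so that the gain extended over a gene far longer than the smoothing window of 5000 bp. SLC8A3, a sodium-calcium exchanger on chromosome 14, had 0% and 14.1% against 81.8% and 73.8%. EDN3, which encodes endothelin 3 on chromosome 20, had 0% and 0% against 79.3% and 60.9%. NEDD9, a scaffold protein of focal adhesions on chromosome 6, had 1.56% and 22.6% against 80.8% and 79.3%. The remaining genes were FAM24B, EHD3 and SMCO4. Over the 10 genes, the MMR deficient libraries ranged from 0% to 23.1% and the proficient ones from 60.9% to 99.1%. Adjusted p-values were between 3.45e-06 and 0.000147 in the limma fit on 14 libraries and between 0.110 and 0.177 in that on 4.

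The 10 genes with the largest losses were covered almost whole in MMR deficient cells and almost not in proficient ones. C1QTNF1, which encodes a secreted protein at chr17:79022814-79049788, had 100% and 100% in deficient and 0.371% and 0% in proficient libraries. ACE, which encodes the angiotensin-converting enzyme at chr17:63477061-63498380, had 100% and 98.4% against 0% and 0%. CDK18, a kinase gene at chr1:205504596-205532793, had 100% and 97.9% against 0% and 0%. The deficient and proficient libraries were thus at opposite ends of the scale in these 3 genes.

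CREB3L1, a membrane-bound transcription factor on chromosome 11, had 96.1% and 97.3% against 1.14% and 0%. ADORA2A, an adenosine receptor on chromosome 22, had 100% and 93.1% against 2.04% and 0%. CA4, a carbonic anhydrase on chromosome 17, had 100% and 87.6% against 0% and 0%. TTBK1, SMTNL2 and NME5 were also among them, and 4 of the 10 lie on chromosome 17. Adjusted p-values were between 1.05e-06 and 0.000483 in the limma fit on 14 libraries and between 0.0705 and 0.0832 in that on 4.

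After RTX the gained genes had low and the lost genes high shares in cells of either MMR status. Their 5FdUR shares follow from how these genes were chosen, so only the other libraries add information. Over the 10 gained genes, the RTX libraries ranged from 0% to 0.982% in deficient and from 0% to 13.6% in proficient cells, and the 6 non-treated libraries from 0% to 7.53%. Over the 10 lost genes, RTX covered 63.3% to 100% in deficient and 43.0% to 100% in proficient cells, while the non-treated libraries covered 0% to 6.18%. Sets of bases, also chosen by their 5FdUR coverage, were compared with the other libraries in the same way. The bases in regions of both 5FdUR_UGI_MMR and neither 5FdUR_UGI library came to 85.2 Mb with 42.7% GC. The RTX_UGI libraries covered 2.38% and 2.76% of them, the RTX_UGI_MMR libraries 9.51% and 5.92%, and the non-treated libraries 2.06% to 2.72%. The bases in regions of both 5FdUR_UGI and neither 5FdUR_UGI_MMR library came to 114 Mb with 47.1% GC. Of these, the RTX_UGI libraries covered 70.2% and 76.8%, the RTX_UGI_MMR libraries 60.3% and 70%, and non-treated libraries at most 1.54%.

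**Figure D1:**
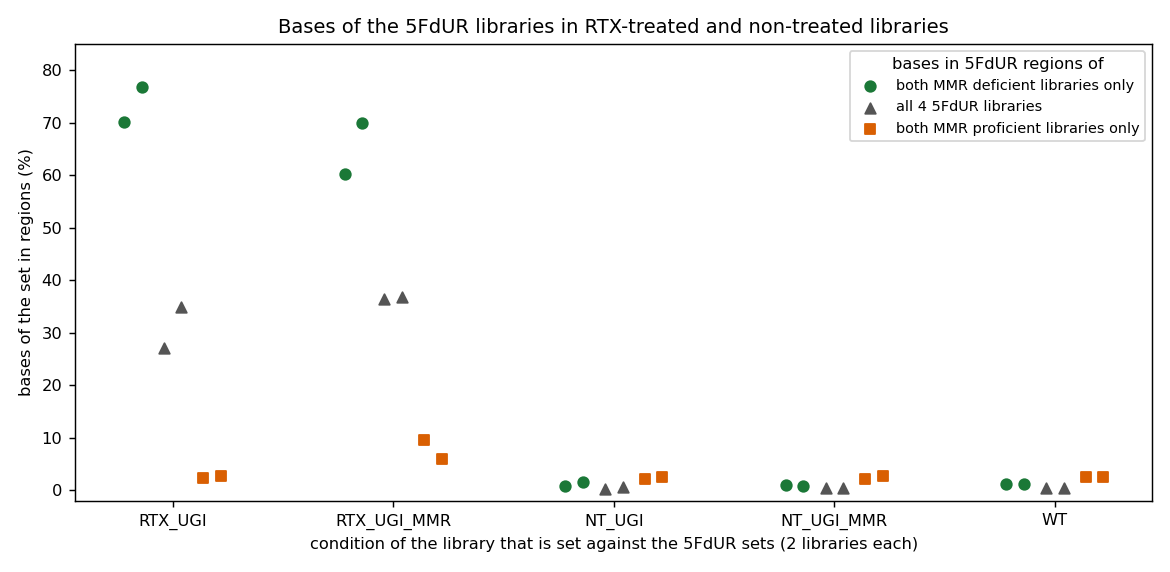
Percentage of bases (y axis) of 3 sets that are in regions of the RTX-treated and non-treated libraries (x axis, 2 points per condition). The sets are the bases covered after 5FdUR in both MMR deficient libraries only, in all 4 libraries, and in both MMR proficient libraries only. The first set lies at 60.3% to 76.8% in RTX libraries and the last at 2.38% to 9.51%.

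Another set, of 77.7 Mb, was covered in all 4 libraries and had 48.2% GC. The mean log2 value of the gained bases was 0.316 and 0.230 in the proficient libraries, against 0.380 and 0.249 for the bases covered in all 4. The lost bases had 0.466 and 0.296 in the deficient libraries, against 0.470 and 0.383. In each library the bases of one MMR status only were thus lower in log2 value than the bases shared by all.

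Whether the MMR difference depended on the treatment was tested by an interaction in limma. It differed between 5FdUR and RTX in 1958 of 23633 bins (8.29%), with a more positive difference after 5FdUR in 1500 bins and a more negative one in 458. In the 1500 bins, which this test chose, the shares were 1.26% and 5.03% in deficient and 34.3% and 34.8% in proficient cells after 5FdUR, and 5.78% and 6.11% against 2.08% and 1.59% after RTX. In the 458 bins they were 72.2% and 63.8% against 23.4% and 20.2% after 5FdUR, and 50.8% and 54.1% against 68.9% and 71.2% after RTX. No bin was called on the arcsine scale, with the replicate block, at a log2 value of at least 0.25, in bins of 50 kb or without 5FdUR_UGI replicate 1. Leaving out one of the other 3 libraries gave 5346 bins without 5FdUR_UGI replicate 2, 7832 without 5FdUR_UGI_MMR replicate 1 and 4119 without 5FdUR_UGI_MMR replicate 2. For each treatment on its own, both proficient libraries were higher in 32.3% and lower in 26.3% of 13311 tested bins after RTX, and higher in 16.3% and lower in 15.4% of 20254 without drug. Against no drug, the MMR difference after 5FdUR differed in 2818 of 27514 bins (10.2%), in 1590 upward and 1228 downward, and between 180 and 7536 bins were called under the alternatives.

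Of the mismatch repair genes themselves, 21 of 22 passed the filter on low shares. In both MMR proficient libraries 3 (14.3%) were higher and 9 (42.9%) lower, against 19% and 36.6% of all tested genes. The median difference over the 22 was -5.53 percentage points, against -2.51 over all 20033 protein-coding genes. The recognition gene MSH6, of 114534 bp, had 72.5% and 52.8% in deficient and 28.4% and 37.5% in proficient libraries. MSH3, which also serves in recognition, had 0% and 1.13% against 2.93% and 11.7%. Of the genes that act after recognition, PMS2 and MLH3 had 2.62% and 8.38% against 0% and 0%, and 65.5% and 2.12% against 0% and 0%, while PMS1 had 0% and 0.138% against 0% and 8.05%. The nuclease gene EXO1 had 0% and 23.2% against 5.93% and 16.5%, with overlap.

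Of the subunits of DNA polymerase δ, 3 of 4 had lower shares in both proficient libraries. POLD1, the catalytic subunit, had 69.5% and 45.6% in deficient and 1.17% and 0% in proficient libraries. POLD2 had 92.2% and 66.5% against 0% and 0%, and POLD3 had 54.8% and 36.6% against 21.9% and 15%. POLD4 had 45.6% and 0% against 0% and 0%, so that its deficient libraries did not both exceed the proficient ones. The single-strand binding genes RPA1 and RPA2 had 28.3% and 0%, and 66.4% and 2.15%, in deficient libraries and no covered base in proficient ones. RPA3 had 9.99% and 4.75% against 1.58% and 7.43%.

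Among the clamp loader genes, RFC3 was higher in proficient cells, with 0.560% and 0.493% against 16% and 17.3%. RFC1 had 5.80% and 5.32% against 0% and 0%, and RFC4 had 10.5% and 32.6% against 10.2% and 0%. RFC2 and RFC5 were covered in one deficient library only, to 6.97% and 49.3%. The clamp gene PCNA had no covered base in any of the 4 libraries, and the ligase gene LIG1 had 0% and 4.89% against 22.3% and 2.54%. The fit on 14 libraries called MSH6, POLD1, POLD2 and POLD3 lower and RFC3 higher, with limma adjusted p-values from 0.000172 to 0.0376. These are 19% of the 21 tested genes lower and 4.76% higher, against 19.6% and 10.1% of all tested genes in the same fit. In the fit on 4 libraries none of the 21 was called.

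The 12 uracil base excision repair genes, which act on uracil and on the gap its removal leaves, had a median difference of -25.5 percentage points. Both proficient libraries were lower in 4 (33.3%) and higher in none, against 36.6% and 19% of all tested genes. APEX1, the main abasic site endonuclease, had 100% and 100% against 0% and 0%. SMUG1, another uracil-DNA glycosylase, had 75.8% and 42.1% against 10.3% and 0%, and PARP1, which senses strand breaks, had 89.4% and 81.2% against 58.4% and 1.04%. LIG3 and APEX2 had a higher mean in proficient cells, with overlap. LIG3 had 0% and 1.71% against 9.58% and 0.342%, and APEX2 had 31.1% and 46.7% against 82.1% and 11.5%. Of the 25 genes of thymidylate and dUTP metabolism, 21 were tested, with 11 (52.4%) lower and 2 (9.52%) higher in both. Their median difference was -7.01. SLC29A1, a nucleoside transporter, had 73.3% and 62.4% against 29.5% and 0%. TK1, which phosphorylates thymidine, had 93.2% and 16.8% against 0% and 0%. The 2 higher genes were GGH, with 0% and 0% against 9.79% and 3.67%, and RRM2B, with 0% and 0% against 3.48% and 8.71%.

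The clustered HOX genes, which pattern the body axis and lie in 4 gene clusters with many CpG islands, had the lowest median difference of the 13 groups, at -54.8 percentage points. Both proficient libraries were lower in 24 of the 39 (61.5%) and higher in none, against 36.6% and 19% of all tested genes. HOXA5, HOXB1 and HOXB2, each shorter than 5 kb, were covered whole in both deficient libraries and had no covered base in the proficient ones. The HOXA genes on chromosome 7 had a mean share of 82.5% and 85.2% in deficient and 24% and 6.38% in proficient libraries. The HOXB genes on chromosome 17 had 68.2% and 93.3% against 33% and 0.699%, and the HOXC genes on chromosome 12 had 84.8% and 92% against 48.6% and 20.8%. The HOXD genes on chromosome 2 had 46.6% and 98.0% against 73.8% and 72.6%, and none of the 9 differed without overlap. After RTX the HOXD genes were covered to at most 1.30% and the HOXA genes to 41.1% to 59.7%. Neighboring HOX genes share smoothed regions, so they are not independent of each other.

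Clustered protocadherins are cell adhesion genes of neurons in a single locus of chromosome 5. They were higher in both proficient libraries in 25 of 51 tested genes (49.0%) and lower in none. Of all tested genes, 19% were higher and 36.6% lower. The mean of the protocadherin group overlapped, with 0.515% and 19% against 20.9% and 18.7%. The 15 alpha genes, which overlap each other, had a mean of 0.173% and 5.00% against 10.4% and 7.14%, and all 15 were higher in both. The 16 beta genes had 0% and 29% against 20.5% and 31.1%, with 3 higher in both, and the 22 gamma genes had 1.12% and 21.3% against 28.5% and 17.5%, with 7 higher in both. No beta gene was lower in both. PCDHB15 had 0% and 10.1% against 60.6% and 100%, while PCDHB10 had 0% and 100% against 30.3% and 0%, with overlap. The median difference of the 53 protocadherins was 6.94. Very long genes of common fragile sites, which break under replication stress, were higher in both proficient libraries in 9 of 17 tested (52.9%). None was lower in both, and the median was 3.72. DAB1, of 1551957 bp, had 0.260% and 0.174% against 7.33% and 9.20%. Zinc finger genes of chromosome 19, most of them KRAB repressors, were higher in 83 (36.4%) and lower in 20 (8.77%) of 228 tested. Their median was 5.77, on the chromosome with one of the largest losses. ZNF599 had 0% and 11.9% against 99.8% and 63.5%. The pattern thus differed within chromosome 19, as ZNF446 had 75.3% and 88.5% against 0% and 0%.

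Of 19 tested genes that DNA damage is known to induce, 9 (47.4%) were lower and 5 (26.3%) higher in both proficient libraries. Of all tested genes, 36.6% were lower and 19% higher. The median over the 25 damage-induced genes was -4.15. PMAIP1, which encodes the pro-apoptotic protein NOXA, had 100% and 100% against 0% and 0%. CDKN1A, the cell cycle inhibitor p21, had 100% and 75.7% against 0% and 0%, and GADD45A had 86.2% and 86.2% against 0% and 0%. XPC, a damage sensor of nucleotide excision repair on chromosome 3, had 0% and 30.6% against 88.9% and 67.8%. Colorectal cancer drivers had a median of 4.26, with 4 of 14 tested (28.6%) higher and 1 (7.14%) lower in both. The higher genes included TGFBR2, a receptor gene on chromosome 3 with 0.619% and 11.5% against 42.8% and 44%. Replication licensing genes had a median of -7.03, with 5 of 15 tested (33.3%) lower and 2 (13.3%) higher. Neither share exceeded that of all tested genes. ORC6 had 97.7% and 100% against 5.71% and 0%.

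The remaining groups hold short genes, many of them shorter than the smoothing window, and their values are those of the surroundings. Cytosolic ribosomal protein genes had a median of -3.20, with 11 of 51 tested lower and 2 higher. RPS20 had 76.6% and 64% against 11.7% and 0%, and RPS12 had 13.4% and 0% against 83.3% and 52.2%. Replication-dependent histone genes had a median of 0, with 9 of 58 tested higher and 6 lower, and a mean share of 15.9% and 50.2% against 33.1% and 49.9%. H2BC10 was covered whole in the deficient libraries only, and H3C11 and H3C13 in the proficient libraries only. Olfactory receptor genes had a median of 0, with 54 of 186 tested higher and 12 lower. OR10C1 and OR52W1 were covered whole in the proficient libraries only, and OR10P1 in the deficient ones only. All counts of the gene groups above are to be read against all tested genes. Of those, 19% were higher and 36.6% lower in both proficient libraries.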

How the data were processed

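Per the labels and the study's methods, U-DNA-Seq reads were trimmed and aligned to GRCh38 with BWA 0.7.17-r1194, only uniquely mapped reads outside blacklisted segments were kept, and genome-scaled coverage was computed with deepTools 3.2.1 in bins of 100 bp with smoothing over 5000 bp. The authors deposited, for each library, the positions of regions above a log2 threshold and for each region a mean log2 ratio, enriched over input, with about equal total length in a condition. Libraries were sequenced on HiSeq or NovaSeq instruments, and which library was run on which is not given in the sources used here. Enriched and input samples of MMR proficient cells are numbered in a later block of the series than those of deficient cells. Whether the blocks differ in handling was not tested. Other deposited tracks, input and mock samples and K562 data were not used.

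Regions on chromosomes 1 to 22, X and Y were turned into covered shares of 29432 bins of 100 kb (at least 50% known bases), 20033 protein-coding genes of GENCODE 44, GC classes and promoters, over 2938 Mb of known bases. Features with a mean share of at least 1% were tested with limma 3.58.1 (lmFit, eBayes with trend) in R 4.3.3 with Benjamini-Hochberg adjustment, and a call needed an adjusted p under 0.05 and no overlap of the groups. The fit was also run on simulated shares with the same normal spread in every library. The spread of the real libraries is not equal, and the outcome of that run is not reported here. Replicates were independent biological replicates. Loci named are the 3 longest runs of called bins in each direction with at most 3 longest genes. Genes named are the 10 of at least 20 kb with the largest difference in each direction, at most 1 per 1 Mb and without unnamed genes, mismatch repair genes, and list members with the largest differences, with a few more chosen after their values were seen. As the fit on 4 libraries called none, both rules used the calls of a fit that estimates the spread from 14 libraries. Members and lists were chosen with earlier results of these data known. RefSeq promoters (GRCh38) matched 15345 genes. Alternatives were other bin sizes, filters, scales, thresholds, the merged files, a replicate block and leaving out each library. Some named genes are not reported here.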

Additional observations from a re-analysis of the deposited data

Results flagged for a closer look

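The MMR difference in covered share differed between 5FdUR and RTX in 1958 of 23633 bins of 100 kb (8.29%) by the interaction test in limma. This count was 0 with the replicate block, on the arcsine scale, at a log2 value of at least 0.25, in bins of 50 kb and without 5FdUR_UGI replicate 1, and 7832 without 5FdUR_UGI_MMR replicate 1. In the same test the MMR difference differed between 5FdUR and no drug in 2818 of 27514 bins (10.2%), and in 180 bins at a log2 value of at least 0.25. Groups of 2 libraries were too small to look for a single library that stands apart.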

How the results depend on the processing

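Where no bin or gene was called by the limma fit on 4 libraries, the fit on all 14 libraries called 6356 bins and 1691 genes higher and 3872 bins and 3279 genes lower in MMR proficient cells. With the replicate block, 1774 bins were higher and 2825 lower, no gene was called, and the interaction with RTX fell from 1958 bins to 0. The deviations of libraries with the same replicate number correlated with r = 0.197 over bins and 0.0239 over genes. The labels do not say that a replicate number marks a shared culture or day, so whether it does was not tested. Bins of 500 kb gave 190 higher, 270 lower, 429 for the interaction with RTX and 607 for that with no drug, of far fewer bins tested. Leaving out one library gave 0 to 4105 bins higher, 0 to 264 bins lower, 0 to 468 genes higher, 268 to 4743 genes lower, and 0 to 7832 and 3717 to 7536 bins for the interactions with RTX and with no drug. Bins were called only without 5FdUR_UGI_MMR replicate 1, and genes were called higher in all of these fits but that without 5FdUR_UGI_MMR replicate 2. Leaving out one library also gave 9 to 12 chromosomes higher and 8 to 11 lower, a difference of -31.6 to -16.9 percentage points in bins of 50% GC or more, of 1.11 to 8.29 in bins under 37% GC and of -14.1 to -7.29 in coding exons. Regions of at least 5 kb gave 36 genes higher, 640 genes lower, interactions in 1304 and 1491 bins, and 0 chromosomes higher and 12 lower. A log2 value of at least 0.25 gave interactions in 0 and 180 bins, 0 chromosomes higher and 1 lower. The highest regions up to 300 Mb gave 54 genes higher, 540 lower, interactions in 1301 and 1607 bins, 5 chromosomes lower, and differences of -15.7 percentage points in the most GC-rich bins and -6.07 in coding exons. The interaction with RTX was 0 on the arcsine scale and in bins of 50 kb. Where it was 0, between 3419 and 12096 bins had an unadjusted p under 0.05. The cause of these shifts was not tested. For the 26 named genes and loci, 177 of 234 recomputed differences moved by less than the replicate SD and 57 by more. As these were chosen for groups that do not overlap, their direction says nothing of stability. The 3 gained runs shrank by more than the replicate SD with each of 3 filters on regions. These kept regions of at least 5 kb, a log2 value of at least 0.25, or the highest regions up to 300 Mb. The last filter gave 21.9, 11.3 and 12.98 percentage points. The 3 lost runs moved by less than the replicate SD with each filter. With the last, the run on chromosome 20 moved from -51.5 to -34.4. The replicate SD of the lost runs was larger, at 15.04 to 23.7 against 3.47 to 5.89. The region files hold no read counts, so shares have no counting interval.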
